A study of Homo sapiens with 12 samples.

Results

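The serine, glycine and one-carbon enzymes described here are 10 human genes: PHGDH, PSAT1, PSPH, SHMT2, SHMT1, MTHFD2, MTHFD1L, ALDH1L2, MTHFD1 and GLDC. They were taken by gene symbol as enzymes of 1 pathway, with earlier results of these data known, and all 10 were found among the 25680 symbols of the deposited tables and among the 16782 genes that passed the filter on low counts. The study measured RNA by sequencing in MM.1S and U266, established human multiple myeloma cell lines, to see how transcription responded to IT848, a compound that the series text calls an NF-kB inhibitor. The 4 groups were MM.1S cells given 6 µM IT848 for 6 h, MM.1S cells given the solvent DMSO for 6 h, U266 cells given 6 µM IT848 for 6 h, and U266 cells given DMSO for 6 h, with 3 libraries each. The culture medium (RPMI with fetal bovine serum) was common to all 4 groups, no other treatment is named, and each line is a single cell line, so differences between MM.1S and U266 are between those lines. Nothing in the labels ties the replicates to separate cultures, and p-values therefore measure the spread between these libraries, which may be technical.

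Cells make serine from a glycolytic intermediate in 3 steps and split it into glycine and a one-carbon unit that is carried on folate. Mitochondrial enzymes oxidise that unit to formate, which cytosolic enzymes use for purine, thymidylate and methionine synthesis. Myeloma cells secrete large amounts of antibody protein and divide, and both activities draw on serine, glycine and nucleotides. The transcription factor ATF4 is known to induce most of the serine synthesis and mitochondrial folate genes.

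In MM.1S, IT848 came with higher RNA of all 3 serine synthesis genes, of the mitochondrial SHMT2 and of ALDH1L2, and with lower RNA of the cytosolic SHMT1 and MTHFD1 and of GLDC. Thus 5 of the 10 genes rose and 3 fell by edgeR's quasi-likelihood test (adjusted p below 0.05), where 38.3% of all genes tested were called, 18.7% higher and 19.6% lower. In U266 the serine synthesis genes, SHMT2 and the 3 mitochondrial folate genes rose, and SHMT1, MTHFD1 and GLDC fell. All 10 genes were called there, 7 higher and 3 lower, where 9.01% of all genes were called, 4.03% higher and 4.98% lower. The U266 calls for PSPH, SHMT1 and MTHFD1 rest on small margins given below, and 7 genes were called when 2 libraries carrying some reads from the other line were left out. The median log2 fold change of the 10 genes was 0.25 in MM.1S, against a median of -0.01 over all genes, and 0.29 in U266, against 0.01 over all genes. The values of the IT848 and DMSO libraries did not overlap for 8 of the 10 genes in MM.1S, where 47.2% of all genes did not overlap, and for 10 of 10 in U266, where 28.9% did not.

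**Figure D1:**
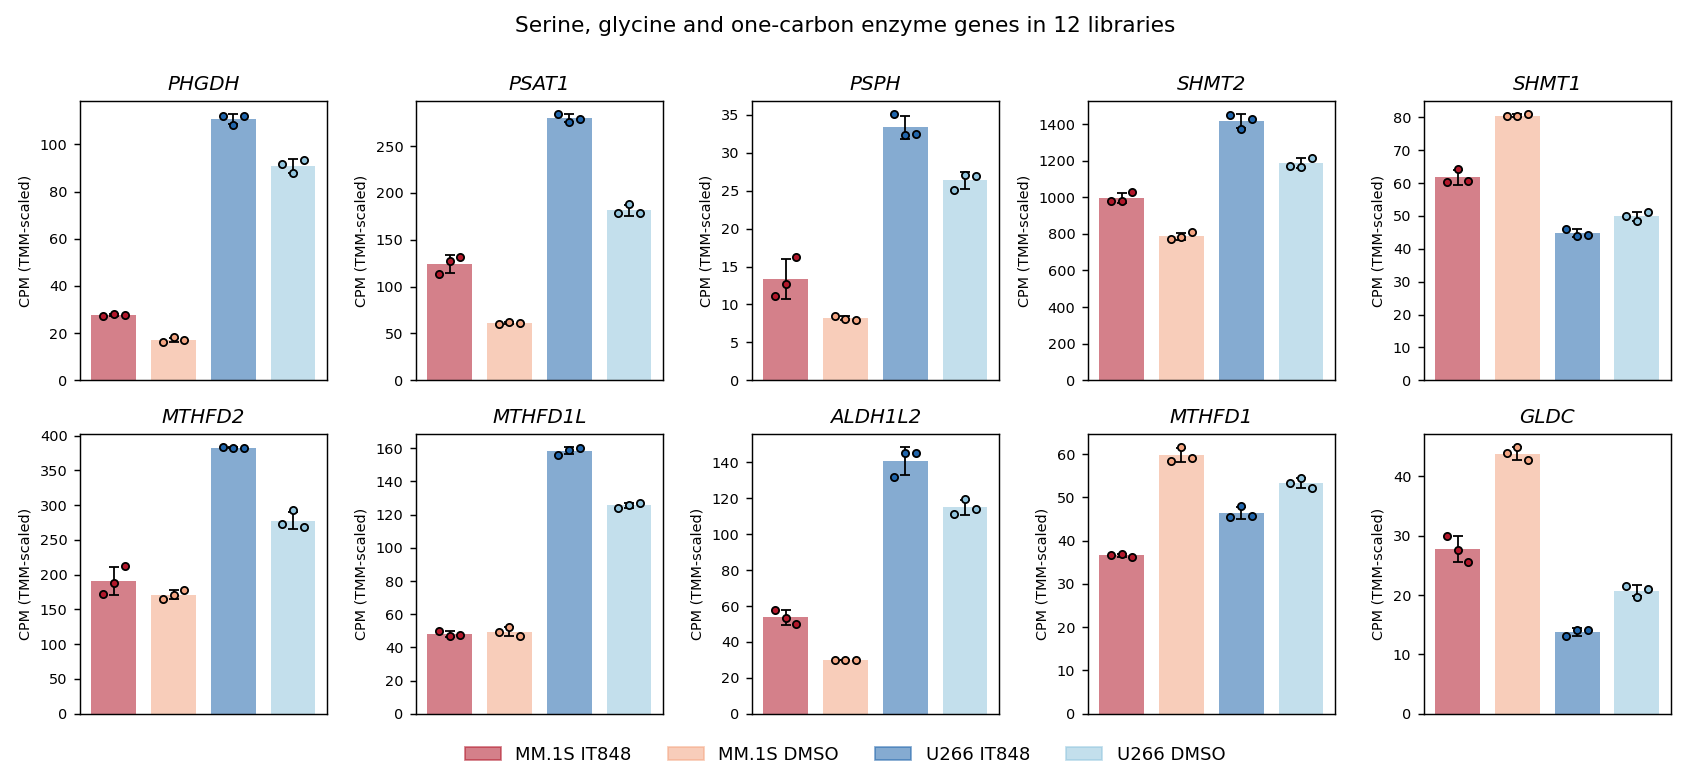
CPM (counts scaled to library size) of each of the 10 genes (vertical axes, 1 panel per gene) in the 4 groups, with a point for each library, a bar for the group mean and an error bar for the SD (n = 3). The IT848 and DMSO libraries of MM.1S overlap for MTHFD2 and MTHFD1L, and those of U266 do not overlap for any of the 10 genes.

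Depth and identity of the libraries were examined first. Transcript-level totals lay between 50627690 and 72039748 counts per library, and the fewest counts for any of the 10 genes in a library were 411, for PSPH in MM.1S DMSO replicate 2. All 7 plasma cell markers examined (SDC1, IRF4, PRDM1, XBP1, TNFRSF17, CD38 and SLAMF7) were above 1 CPM in every library, where CPM is the summed count scaled to library size by the TMM method. Their summed level was 5897 to 6093 CPM in MM.1S IT848 libraries, against 6144 to 6220 CPM in MM.1S DMSO libraries, and 2676 to 2770 CPM in U266 IT848 libraries, against 3104 to 3283 CPM in U266 DMSO libraries. Within these sums SLAMF7 was higher with IT848, at 3755 ± 107 CPM in MM.1S IT848 libraries against 2796 ± 6.97 CPM in MM.1S DMSO libraries (SD, n = 3 each), and at 905 ± 26.3 CPM in U266 IT848 libraries against 652 ± 2.89 CPM in U266 DMSO libraries. SDC1 was lower, at 318 ± 3.91 CPM in MM.1S IT848 libraries against 655 ± 8.15 CPM in MM.1S DMSO libraries, and at 734 ± 10.3 CPM in U266 IT848 libraries against 1067 ± 43.1 CPM in U266 DMSO libraries. IRF4, PRDM1, XBP1 and CD38 were also lower in every IT848 library than in every DMSO library of the same line, whereas TNFRSF17 was higher in MM.1S and lower in U266, and the part of these markers in the results was not tested. CPM is a share of all counts, so a lower value can mean less RNA per cell, fewer cells that express the gene, or more RNA of other genes. These cannot be told apart in bulk RNA. The 3 T cell markers summed to at most 1.39 CPM and the 3 myeloid markers to at most 4.76 CPM, and the myeloid marker LYZ was at 0 in all 3 MM.1S DMSO libraries. The 3 stromal markers (COL1A1, COL3A1 and DCN) summed to 16.6 to 21.4 CPM in MM.1S IT848 libraries against 10.8 to 13.9 CPM in MM.1S DMSO libraries, and to 29.8 to 35.6 CPM in U266 IT848 libraries against 22.9 to 27.6 CPM in U266 DMSO libraries, and their part in the results was not tested. Reads of the other line were gauged on 8 genes for MM.1S and 15 for U266, picked at 50 CPM or more in their own line. They were also picked at 0.1 CPM or less in DMSO libraries of the other line, with MM.1S DMSO replicate 2 exempt. Low values in those DMSO libraries follow from that choice, so the comparison here is with IT848 libraries. For the 8 MM.1S genes, U266 IT848 replicate 1 held 0.866% of what MM.1S had. U266 IT848 replicates 2 and 3 held 0.0750% and 0.0773%. For the 15 U266 genes, MM.1S DMSO replicate 2 held 0.395% of what U266 had, and MM.1S IT848 libraries held at most 0.0700%.

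Promoters are shown for PSAT1, which rose the most in MM.1S, and for MTHFD1, which fell. Those of MTHFD1L and MTHFD2 are shown because both met the threshold for a rise in U266 and not in MM.1S. No link between a promoter and a response was tested. Windows of 300 bases, from 250 before to 50 after the start, are from RefSeq on GRCh38.p14 and were matched by symbol for 7 of the 10 genes (PHGDH, PSAT1, SHMT1, MTHFD2, MTHFD1L, MTHFD1 and GLDC). They were searched on both strands for 3 motifs: TGATGNAA, the C/EBP-ATF response element bound by ATF4, TGACNNNGC, the core of the antioxidant response element, and CACGTG, the E-box bound by MYC. The motifs occurred in 3.62%, 13.3% and 7.26% of all 35116 windows, in that order. Capitals mark the matches, which did not overlap each other. The PSAT1 window lies at chr9:78296875-78297174, the MTHFD2 window at chr2:74198365-74198664, the MTHFD1L window at chr6:150866236-150866535 and the MTHFD1 window at chr14:64388103-64388402, all on the plus strand.
PSAT1: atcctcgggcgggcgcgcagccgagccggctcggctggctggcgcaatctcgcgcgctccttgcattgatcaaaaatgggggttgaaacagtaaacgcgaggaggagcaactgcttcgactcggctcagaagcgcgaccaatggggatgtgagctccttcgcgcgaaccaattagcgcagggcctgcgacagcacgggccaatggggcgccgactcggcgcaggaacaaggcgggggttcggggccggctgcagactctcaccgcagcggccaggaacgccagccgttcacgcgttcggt
MTHFD2: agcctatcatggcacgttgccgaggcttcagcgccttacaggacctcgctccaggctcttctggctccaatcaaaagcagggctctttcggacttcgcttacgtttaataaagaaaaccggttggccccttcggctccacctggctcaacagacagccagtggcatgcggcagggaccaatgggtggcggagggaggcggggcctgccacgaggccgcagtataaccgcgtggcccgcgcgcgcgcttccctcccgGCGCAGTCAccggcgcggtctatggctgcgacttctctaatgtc
MTHFD1L: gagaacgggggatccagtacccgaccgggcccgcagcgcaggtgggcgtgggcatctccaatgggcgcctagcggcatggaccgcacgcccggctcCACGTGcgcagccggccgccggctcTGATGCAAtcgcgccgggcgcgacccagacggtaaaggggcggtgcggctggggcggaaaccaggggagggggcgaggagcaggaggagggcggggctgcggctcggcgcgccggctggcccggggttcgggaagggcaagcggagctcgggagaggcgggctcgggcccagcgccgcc
MTHFD1: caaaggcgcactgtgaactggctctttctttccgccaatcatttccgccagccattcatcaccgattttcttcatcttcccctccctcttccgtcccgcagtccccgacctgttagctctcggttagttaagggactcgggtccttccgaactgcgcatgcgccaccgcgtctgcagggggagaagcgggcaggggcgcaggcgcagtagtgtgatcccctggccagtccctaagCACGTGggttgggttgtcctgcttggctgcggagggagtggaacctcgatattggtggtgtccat
MTHFD1L held CACGTG from position -154 and TGATGCAA from position -129, counted from the start site, and 3 of its 4 windows, which overlap each other, held this same pair. MTHFD2 held the antioxidant core on the minus strand, read as GCGCAGTCA on the plus strand from position 7, and MTHFD1 held CACGTG from position -15. The windows of PHGDH, PSAT1, SHMT1 and GLDC held none of the 3 motifs. A match describes letters in a window and not a bound site.

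Serine synthesis genes came out higher with IT848 in both lines. PHGDH, the dehydrogenase of the first committed step from phosphoglycerate, had 27.1, 27.9 and 27.6 CPM in MM.1S IT848 libraries, against 16.2, 18.1 and 16.9 CPM in MM.1S DMSO libraries. In U266 it had 112, 108 and 112 CPM with IT848, against 91.6, 87.7 and 93.5 CPM with DMSO. The groups did not overlap in either line. PHGDH rose 1.62-fold in MM.1S (log2 fold change 0.69 ± 0.05 SE, adjusted p = 1.38e-07), and its log2 fold change in U266 was 0.28 ± 0.05 (adjusted p = 0.000969), both by edgeR's quasi-likelihood test, which gives every adjusted p below.

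PSAT1, the aminotransferase that adds nitrogen from glutamate in the next step, had 113, 128 and 131 CPM in MM.1S IT848 libraries, against 60.2, 62.0 and 61.4 CPM in MM.1S DMSO libraries. Its U266 values were 285, 276 and 279 CPM with IT848, against 178, 188 and 178 CPM with DMSO. Every IT848 library lay above every DMSO library of its line. It rose 2.03-fold in MM.1S (log2 1.02 ± 0.05, adjusted p = 3.01e-09) and 1.54-fold in U266 (log2 0.63 ± 0.05, adjusted p = 1.79e-06), the highest fold of the 10 genes in each line. PSPH, the phosphatase that releases serine, had 11.1, 12.8 and 16.2 CPM in MM.1S IT848 libraries, against 8.45, 8.13 and 7.92 CPM in MM.1S DMSO libraries. With IT848 it had 35.1, 32.4 and 32.5 CPM in U266, against 25.1, 27.1 and 27.0 CPM with DMSO. Groups were again separate, although the 3 MM.1S IT848 libraries were spread more widely than the DMSO libraries. The log2 fold change of PSPH was 0.71 ± 0.11 in MM.1S (adjusted p = 0.000156) and 0.34 ± 0.10 in U266 (adjusted p = 0.0399). The U266 call for PSPH was lost in 12 of 19 alternative settings, with an adjusted p up to 0.192, and among these when any library other than MM.1S IT848 replicate 1 or 3 was left out. PSPH shares sequence with the pseudogene PSPHP1, and how the authors treated reads that map to both is not given in the sources used here.

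The serine hydroxymethyltransferases, which split serine into glycine and a one-carbon unit, moved in opposite directions. SHMT2, the mitochondrial enzyme, had 982, 979.5 and 1028 CPM in MM.1S IT848 libraries, against 769.5, 784 and 808 CPM in MM.1S DMSO libraries. U266 libraries held 1449, 1375 and 1429 CPM with IT848, against 1172, 1167 and 1216 CPM with DMSO. Both lines showed separate groups, and SHMT2 rose by a log2 fold change of 0.34 ± 0.04 in MM.1S (adjusted p = 5.91e-06) and of 0.26 ± 0.04 in U266 (adjusted p = 0.000308). The tables list 9 SHMT2 transcripts whose reads are counted for each, so its summed CPM is not a level to set beside other genes, and its calls were the same with 1 transcript per gene. SHMT1, the cytosolic enzyme, had 60.3, 64.4 and 60.6 CPM in MM.1S IT848 libraries, against 80.3, 80.3 and 81.1 CPM in MM.1S DMSO libraries. In U266 it had 46.1, 43.9 and 44.3 CPM with IT848, against 50.1, 48.4 and 51.1 CPM with DMSO. All IT848 libraries lay below the DMSO libraries of their line, with a wider gap in MM.1S. SHMT1 fell in MM.1S (log2 -0.38 ± 0.04, adjusted p = 9.24e-06) and in U266 (log2 -0.16 ± 0.04, adjusted p = 0.037). Its U266 call was lost in 11 of 19 settings, with an adjusted p up to 0.169, 8 of them leaving out one library each: any U266 library other than DMSO replicate 2, or any MM.1S DMSO library.

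Per transcript length, using the deposited TPM of each gene's most counted transcript, the ratio of SHMT2 to SHMT1 was 5.81 in MM.1S IT848 libraries (range 5.48 to 6.11), against 3.52 in MM.1S DMSO libraries (3.46 to 3.59). The ratio was 11.5 in U266 IT848 libraries (11.4 to 11.7), against 8.58 in U266 DMSO libraries (8.44 to 8.71). The ranges did not overlap within a line. With 3 libraries a group no exact permutation test of a single ratio can fall below 0.10, so none is given.

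The mitochondrial folate enzymes did not share a single pattern. MTHFD2, the dehydrogenase and cyclohydrolase that oxidises methylene-tetrahydrofolate and is high in many dividing cells, had 172, 187 and 212 CPM in MM.1S IT848 libraries, against 165, 171 and 178 CPM in MM.1S DMSO libraries. In U266 the values were 383, 382 and 382 CPM with IT848, against 272, 293 and 269 CPM with DMSO. The MM.1S groups overlapped, whereas the 3 U266 IT848 libraries were nearly equal and all above the DMSO libraries. MTHFD2 rose in U266 (log2 0.46 ± 0.06, adjusted p = 0.000204), and its log2 fold change of 0.15 ± 0.06 in MM.1S did not pass (adjusted p = 0.0631). Without MM.1S IT848 replicate 1, its MM.1S log2 fold change was 0.24 and passed (adjusted p = 0.004), and it also passed with 1 transcript per gene (adjusted p = 0.042) and with a replicate block (adjusted p = 0.0117).

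MTHFD1L, the mitochondrial synthetase that releases formate, had 50.1, 47.1 and 47.3 CPM in MM.1S IT848 libraries, against 49.3, 52.2 and 47.1 CPM in MM.1S DMSO libraries. With IT848 it had 156, 159 and 160.2 CPM in U266, against 124, 126 and 127 CPM with DMSO. Groups overlapped in MM.1S and were separate in U266. Its log2 fold change was -0.04 ± 0.05 in MM.1S (adjusted p = 0.52), with a direction that turned to 0.0086 when the 2 libraries with reads of the other line were left out, and it rose in U266 (log2 0.34 ± 0.04, adjusted p = 0.000153). The short MTHFD1L transcript NM_001242769, of 1065 bases, held 29.4% of the counts of the most counted transcript in MM.1S IT848 libraries, against 27.6% in MM.1S DMSO libraries, and 29.4% in U266 IT848 libraries, against 30.5% in U266 DMSO libraries.

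ALDH1L2, the mitochondrial dehydrogenase that oxidises formyl-tetrahydrofolate to CO2 while making NADPH, had 57.9, 53.2 and 49.8 CPM in MM.1S IT848 libraries, against 29.9, 29.9 and 29.8 CPM in MM.1S DMSO libraries. Its U266 values were 132, 145 and 145 CPM with IT848, against 111, 119.5 and 114 CPM with DMSO. The groups were separate in both lines, and the 3 MM.1S DMSO libraries were nearly equal. ALDH1L2 rose 1.80-fold in MM.1S (log2 0.85 ± 0.06, adjusted p = 8.21e-08) and its log2 fold change in U266 was 0.29 ± 0.06 (adjusted p = 0.00341). At 7539 bases it is the longest of the 10 transcripts used, and counts leaned towards longer transcripts more in MM.1S DMSO libraries (rank correlation of length with the ratio to the line's mean 0.168 to 0.451) than in MM.1S IT848 libraries (-0.484 to 0.0286). With that length trend taken out, its MM.1S log2 fold change was 0.99. The same trend bears in the other direction on shorter transcripts, such as those of PHGDH, PSAT1, PSPH, SHMT2 and MTHFD2 (2015 to 2357 bases). PHGDH, PSAT1, PSPH and SHMT2 kept their MM.1S calls in all 19 settings, this correction among them. Their lowest log2 fold changes there were 0.64, 0.99, 0.55 and 0.31, in that order, and 0.08 for MTHFD2. In TPM, MTHFD2 averaged 88.5 in MM.1S IT848 libraries against 86.3 in MM.1S DMSO libraries. The length correlations in U266 were 0.00504 to 0.216 in DMSO libraries and -0.277 to 0.123 in IT848 libraries, ranges that overlapped. The U266 calls of PHGDH, PSAT1, SHMT2, MTHFD2 and ALDH1L2 held in all 19 settings, and that of PSPH did not.

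The cytosolic folate enzyme MTHFD1 and the glycine decarboxylase GLDC were lower with IT848. MTHFD1, which interconverts one-carbon folates and uses formate for purine synthesis, had 36.7, 36.8 and 36.2 CPM in MM.1S IT848 libraries, against 58.5, 61.6 and 59.1 CPM in MM.1S DMSO libraries. U266 libraries held 45.5, 48.1 and 45.7 CPM with IT848, against 53.4, 54.4 and 52.1 CPM with DMSO. The groups were separate in both lines. MTHFD1 fell in MM.1S (log2 -0.71 ± 0.04, adjusted p = 2.28e-08) and in U266 (log2 -0.20 ± 0.04, adjusted p = 0.00801). Its U266 adjusted p was 0.059 when the 2 libraries with reads of the other line were left out together. GLDC, the decarboxylase of the mitochondrial glycine cleavage system, had 29.99, 27.7 and 25.6 CPM in MM.1S IT848 libraries, against 43.9, 44.9 and 42.8 CPM in MM.1S DMSO libraries. With IT848 it had 13.01, 14.1 and 14.1 CPM in U266, against 21.5, 19.7 and 21.0 CPM with DMSO. Each IT848 library lay below each DMSO library of its line. The log2 fold change of GLDC was -0.66 ± 0.06 in MM.1S (adjusted p = 1.39e-06) and -0.59 ± 0.06 in U266 (adjusted p = 3.24e-05), the lowest of the 10 genes in U266.

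**Figure D2:**
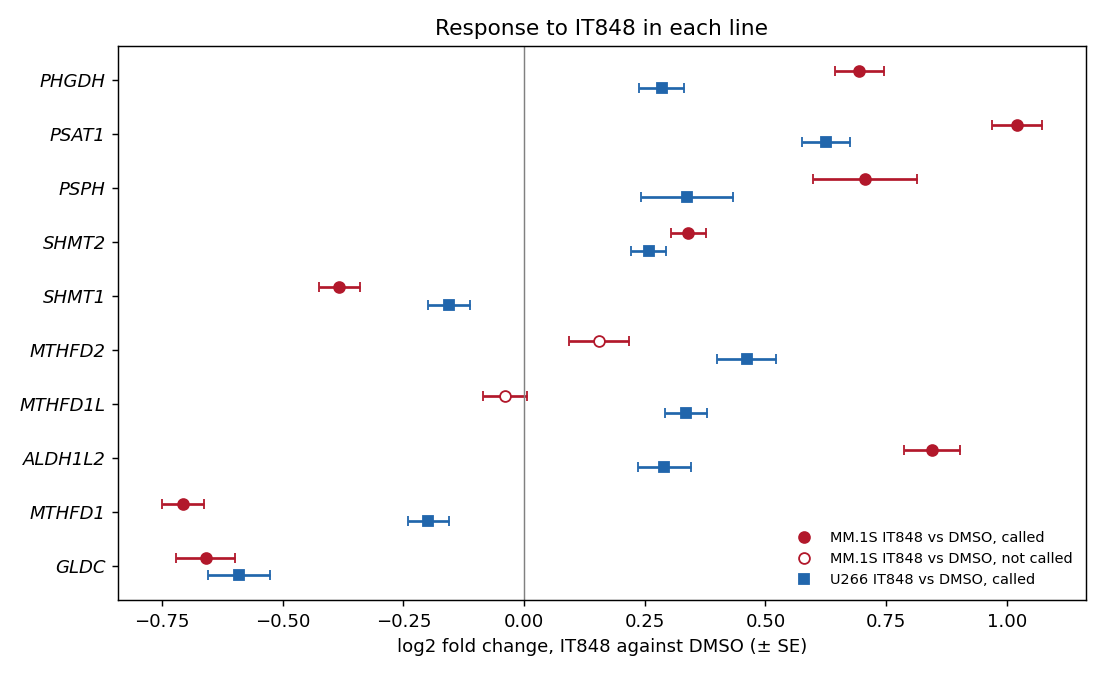
Log2 fold change of IT848 over DMSO with its standard error (horizontal axis) for the 10 genes in MM.1S and U266, by edgeR on 3 libraries a group. PSAT1 is highest in both lines (1.02 in MM.1S and 0.63 in U266), and MTHFD2 and MTHFD1L lie higher in U266 than in MM.1S.

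Whether the responses differed between the lines was tested as the MM.1S response minus the U266 response, a contrast built from the same 12 libraries as the responses themselves. It passed for 7 of the 10 genes, 3 higher and 4 lower, where 17.4% of all genes were called, 8.49% higher and 8.94% lower. The response was more positive in MM.1S for ALDH1L2 (0.56 ± 0.08, adjusted p = 0.000337), PHGDH (0.41 ± 0.07, adjusted p = 0.00101) and PSAT1 (0.40 ± 0.07, adjusted p = 0.00186). It was more negative in MM.1S for MTHFD1 (-0.51 ± 0.06, adjusted p = 7.01e-05), MTHFD1L (-0.38 ± 0.06, adjusted p = 0.00101), MTHFD2 (-0.31 ± 0.09, adjusted p = 0.0262) and SHMT1 (-0.23 ± 0.06, adjusted p = 0.0201). The 3 mitochondrial folate genes were thus divided, with a more positive response in MM.1S for ALDH1L2 and in U266 for MTHFD2 and MTHFD1L. Differences of 0.37 ± 0.14 for PSPH (adjusted p = 0.094), 0.08 ± 0.05 for SHMT2 (adjusted p = 0.297) and -0.07 ± 0.09 for GLDC (adjusted p = 0.637) did not pass. The MTHFD2 call was lost in 10 of 19 settings (adjusted p up to 0.118), 9 of them leaving out any one library other than U266 DMSO replicate 2, MM.1S DMSO replicate 1 and MM.1S IT848 replicate 3. The SHMT1 call was lost in 6 settings (adjusted p up to 0.119), 4 of them leaving out U266 DMSO replicate 1 or 2 or U266 IT848 replicate 1 or 3. PSPH passed without MM.1S IT848 replicate 1 (0.50, adjusted p = 0.00892).

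Under DMSO alone, MM.1S had less RNA than U266 for 7 of the 10 genes and more for 3, where 82.6% of all genes were called, 40.6% higher and 42.1% lower in MM.1S. The DMSO libraries of the 2 lines did not overlap for 10 of the 10 genes, where 84.7% of all genes did not overlap, so the count itself is near the background. These libraries also enter the responses above. The largest gap was in PHGDH (log2 -2.42 ± 0.05, adjusted p = 3.83e-15), followed by ALDH1L2 (-1.95 ± 0.06, adjusted p = 1.76e-13), PSPH (-1.69 ± 0.10, adjusted p = 9.66e-10) and PSAT1 (-1.57 ± 0.05, adjusted p = 5.01e-13). MTHFD1L (-1.34 ± 0.05), MTHFD2 (-0.70 ± 0.06) and SHMT2 (-0.59 ± 0.04) were lower in MM.1S by smaller amounts. The genes higher in MM.1S were GLDC (1.08 ± 0.06, adjusted p = 3.07e-10), SHMT1 (0.69 ± 0.04, adjusted p = 8.51e-10) and MTHFD1 (0.16 ± 0.04, adjusted p = 0.00242).

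Levels between genes can be set beside each other only per transcript length, as deposited TPM. In MM.1S IT848 libraries SHMT2 averaged 99.9 TPM, above MTHFD2 (88.5), PSAT1 (58.4), PHGDH (29.1) and MTHFD1 (22.6 TPM). Then came SHMT1 (17.2), GLDC (15.5), PSPH (13.3), MTHFD1L (9.07) and ALDH1L2 (7.59 TPM), where SHMT1 overlapped GLDC, GLDC overlapped PSPH and MTHFD1L overlapped ALDH1L2. MM.1S DMSO libraries began with MTHFD2 (86.3 TPM) and SHMT2 (85.4 TPM), which overlapped, and went on without overlap between neighbours to MTHFD1 (39.9), PSAT1 (31.3), GLDC (26.5), SHMT1 (24.2), PHGDH (19.5), MTHFD1L (10.2), PSPH (8.88) and ALDH1L2 (4.56 TPM). In MM.1S, PHGDH thus stood above MTHFD1 with IT848 and below it with DMSO. In U266 IT848 libraries the order was MTHFD2 (174 TPM), SHMT2 (139), PSAT1 (129), PHGDH (114), PSPH (32.7), MTHFD1L (29.2), MTHFD1 (28.0), ALDH1L2 (19.4), SHMT1 (12.2) and GLDC (7.50 TPM), where MTHFD1L and MTHFD1 overlapped. In U266 DMSO libraries it was MTHFD2 (127 TPM), SHMT2 (117), PHGDH (94.5), PSAT1 (84.4), MTHFD1 (32.4), PSPH (26.1), MTHFD1L (23.2), ALDH1L2 (15.99), SHMT1 (13.7) and GLDC (11.4 TPM), with no overlap between neighbours.

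TPM ratios of the mitochondrial MTHFD1L and MTHFD2 to the cytosolic MTHFD1 were higher in IT848 libraries of both lines. MTHFD1L over MTHFD1 was 0.401 in MM.1S IT848 libraries against 0.255 in MM.1S DMSO libraries, and 1.04 in U266 IT848 libraries against 0.718 in U266 DMSO libraries. MTHFD2 over MTHFD1 was 3.92 in MM.1S IT848 libraries against 2.16 in MM.1S DMSO libraries, and 6.22 in U266 IT848 libraries against 3.93 in U266 DMSO libraries. The ranges of these ratios did not overlap within a line. Both ratios share MTHFD1 and are not separate results. In MM.1S, MTHFD1 averaged 22.6 TPM with IT848 against 39.9 TPM with DMSO. MTHFD1L averaged 9.07 against 10.2 TPM there and MTHFD2 88.5 against 86.3 TPM, and neither was called. The transcripts of MTHFD2 and MTHFD1 differ in length (2285 and 3448 bases), and the ratios were not corrected for the length trend. MTHFD2 also exceeded its paralog MTHFD2L in all 4 groups, by a ratio of 22.8 in MM.1S IT848 libraries against 28.2 in MM.1S DMSO libraries, and of 95.8 in U266 IT848 libraries against 72.6 in U266 DMSO libraries.

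**Figure D3:**
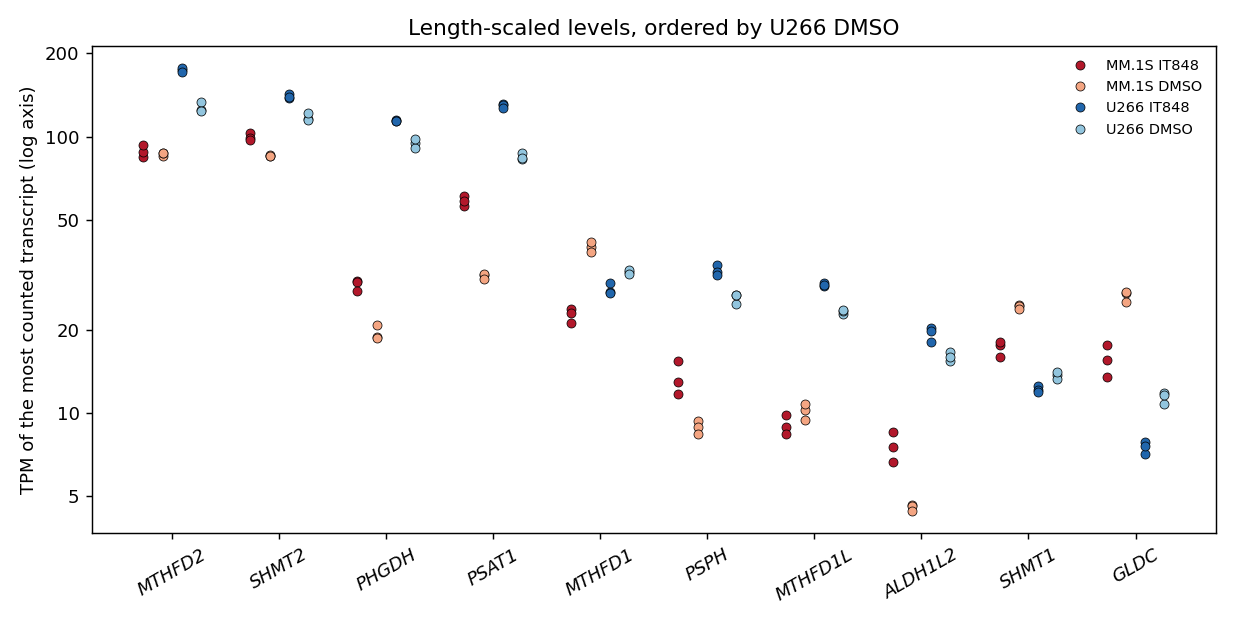
Deposited TPM (log axis) of the most counted transcript of each gene in the 4 groups, with a point for each library (n = 3). MTHFD2 and SHMT2 hold the highest values in each group, and PHGDH averages 19.5 TPM in MM.1S DMSO libraries against 94.5 TPM in U266 DMSO libraries.

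Genes around the pathway were then read from 9 lists. The counts called higher or lower in each list are by the same edgeR test, and the lists were counted with the share of all genes called as their background (38.3% in MM.1S and 9.01% in U266). Of the 13 genes of purine synthesis, a pathway that uses formyl-tetrahydrofolate, 10 fell in MM.1S (median log2 -0.34), and 9 without the 2 libraries carrying reads from the other line. In U266 1 fell (median -0.07). No purine gene rose in either line, by edgeR at an adjusted or an unadjusted p below 0.05 (0 of 13) or by DESeq2 (0 of 13). GART, a multifunctional enzyme with a formyl-dependent step, averaged 302.7 ± 10.9 CPM in MM.1S IT848 libraries against 409.9 ± 5.84 CPM in MM.1S DMSO libraries (SD, n = 3 each; log2 -0.44 ± 0.04, adjusted p = 5.99e-07), and its response differed between the lines by -0.44 ± 0.05 (adjusted p = 6.87e-05). PFAS (-0.66 ± 0.07), PAICS (-0.43 ± 0.04) and GMPS (-0.38 ± 0.05) also fell in MM.1S, and the response difference was called for 7 of the 13, all more negative in MM.1S, where 8.94% of all genes were called in that direction. This count was 4 without the 2 libraries carrying reads from the other line.

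Among 7 tested genes of folate uptake, storage and reduction, 1 rose and 4 fell in MM.1S, and 0 were called in U266 (1 at an unadjusted p below 0.05, and 1 by DESeq2, lower in both cases). In MM.1S 1 of the 4 falls lost its call in 13 of 19 settings (adjusted p up to 0.198), and the falls numbered 3 to 5 over the settings. SLC19A1, the reduced folate carrier, averaged 68.8 ± 7.36 CPM in MM.1S IT848 libraries against 108 ± 1.72 CPM in MM.1S DMSO libraries (log2 -0.65 ± 0.10, adjusted p = 0.000259), and its response differed between the lines by -0.83 ± 0.16 (adjusted p = 0.00351). The folate transporter SLC46A1 also fell in MM.1S (-0.32 ± 0.06), while GGH, which removes glutamate tails from folates, had 0.37 ± 0.13 (adjusted p = 0.0322). The GGH call was lost in 7 of 19 settings (adjusted p up to 0.123), among them leaving out MM.1S DMSO replicate 1 or 2 or MM.1S IT848 replicate 3. Of 7 other folate enzymes 4 rose and 1 fell in MM.1S, and 0 were called in U266 (1 lower at an unadjusted p below 0.05, and 0 by DESeq2). TYMS, which makes thymidylate, was the one that fell (-0.39 ± 0.04), and MTHFS (0.51 ± 0.12), MTHFD2L (0.46 ± 0.12) and ALDH1L1 (1.08 ± 0.31, at 0.238 CPM with IT848 and 0.114 CPM with DMSO) were among those that rose, although the ALDH1L1 call was lost without MM.1S DMSO replicate 3, without MM.1S IT848 replicate 2 and with 1 transcript per gene (adjusted p up to 0.254). In the methionine cycle 3 of 8 tested genes fell in MM.1S, MTR (-0.45 ± 0.06), MAT2A (-0.44 ± 0.04) and MTRR (-0.18 ± 0.04), and 0 were called in U266 (2 lower at an unadjusted p below 0.05, and 1 by DESeq2). That MM.1S count is near the 38.3% of all genes called, and the list median was -0.05 against -0.01 over all genes. Of the 3 partners of GLDC 1 was called in MM.1S, also near that share: DLD rose (0.27 ± 0.04, adjusted p = 0.000329). AMT and GCSH were not called in either line (log2 0.25 ± 0.10 for GCSH in MM.1S, adjusted p = 0.0566). Without MM.1S IT848 replicate 1 both passed in MM.1S, GCSH higher and AMT lower, and GCSH also passed there by DESeq2.

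Transport and use of serine and glycine included genes that rose in both lines and a transporter that fell in both. SLC6A9, a glycine transporter, averaged 81.1 ± 10.2 CPM in MM.1S IT848 libraries against 45.9 ± 0.901 CPM in MM.1S DMSO libraries (log2 0.82 ± 0.08, adjusted p = 2.26e-06), and 207 ± 11.8 CPM in U266 IT848 libraries against 110.0 ± 7.23 CPM in U266 DMSO libraries (log2 0.92 ± 0.08, adjusted p = 3.11e-06). Over the 9 transporters tested 3 rose and 3 fell in MM.1S, and 4 rose and 1 fell in U266. Without the 2 libraries carrying reads from the other line these counts were 2 and 2 in MM.1S, and 3 and 0 in U266. The 1 transporter that fell in U266 also fell in MM.1S, where its call held in all 19 settings. Its U266 call was lost in 9 of 19 settings (adjusted p up to 0.165). SLC1A4, a carrier of serine and alanine, fell in MM.1S (-0.14 ± 0.05) and rose in U266 (0.20 ± 0.05), and that difference passed (-0.34 ± 0.07, adjusted p = 0.00381). The MM.1S call was lost in 8 of 19 settings (adjusted p up to 0.178), 6 of them leaving out U266 DMSO or IT848 replicate 3, MM.1S DMSO replicate 1 or 2, or MM.1S IT848 replicate 2 or 3, and the U266 call in 2 settings (adjusted p up to 0.0742), 1 of them leaving out U266 DMSO replicate 3. Of 8 tested genes that use serine or glycine 6 rose and 1 fell in MM.1S, and 2 rose and 1 fell in U266. The 1 that fell there was GATM, which makes the creatine precursor from glycine and is named here after its values were seen (-0.17 ± 0.05, adjusted p = 0.0433). Its call was lost in 12 of 19 settings (adjusted p up to 0.262), among them when any library other than MM.1S IT848 replicate 1 or 3 was left out. CTH and CBS, which carry serine into cysteine synthesis, rose in both lines, CTH by 1.23 ± 0.09 in MM.1S and 1.01 ± 0.07 in U266, and CBS by 0.68 ± 0.13 in MM.1S and 0.53 ± 0.09 in U266 on the log2 scale.

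Regulators of serine synthesis and targets of ATF4 were counted last. Of 7 regulators 4 rose and 1 fell in MM.1S, and 5 rose in U266. MYC averaged 149 ± 6.60 CPM in MM.1S IT848 libraries against 230.1 ± 3.08 CPM in MM.1S DMSO libraries (log2 -0.63 ± 0.11, adjusted p = 0.000486), and 4.65 ± 1.46 CPM in U266 IT848 libraries against 3.60 ± 0.165 CPM in U266 DMSO libraries (adjusted p = 0.23). The U266 IT848 libraries had 6.32, 3.94 and 3.68 CPM of MYC, and the highest of them is replicate 1, the library with 0.866% of the MM.1S level of MM.1S genes. ATF3 rose in U266 (0.87 ± 0.06) and not in MM.1S (-0.11 ± 0.06), a difference that passed (-0.98 ± 0.09, adjusted p = 5.38e-06), with ATF3 lower in MM.1S (adjusted p = 0.0385) once MM.1S IT848 replicate 3 was left out. CEBPB rose in both lines (0.44 ± 0.08 in MM.1S and 0.68 ± 0.07 in U266). ATF4 and NFE2L2 are named after their values were seen. ATF4 had log2 fold changes of 0.26 ± 0.04 in MM.1S and 0.16 ± 0.04 in U266 (called in both). The U266 call of ATF4 was lost without U266 DMSO replicate 1 or 3 or U266 IT848 replicate 3 (adjusted p up to 0.0851). NFE2L2 rose in MM.1S (0.47 ± 0.06, adjusted p = 2.75e-05) and was not called in U266 (adjusted p = 0.998), a difference that passed (0.47 ± 0.08, adjusted p = 0.00164). Of 10 listed ATF4 targets 4 rose and 2 fell in MM.1S (median log2 0.11), against 10 of 10 that rose in U266 (median 0.50). The list mixes genes of amino acid metabolism with stress response genes such as TRIB3. Leaving out 1 library moved the MM.1S median between 0.013 (without MM.1S DMSO replicate 1) and 0.19 (without MM.1S IT848 replicate 1), with 0.06 without MM.1S IT848 replicate 2 and 0.03 without MM.1S IT848 replicate 3, and the U266 median between 0.47 and 0.51. SLC7A11, the cystine carrier, rose by 2.12 ± 0.07 in MM.1S and 0.66 ± 0.06 in U266 on the log2 scale, whereas DDIT4 fell by 0.69 in MM.1S and rose by 0.71 ± 0.07 in U266. TRIB3, a pseudokinase of the stress response, rose in both lines (0.43 ± 0.06 in MM.1S and 0.77 ± 0.06 in U266), and SESN2 fell in MM.1S (-0.34 ± 0.07) and rose in U266 (0.38 ± 0.06).

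**Figure D4:**
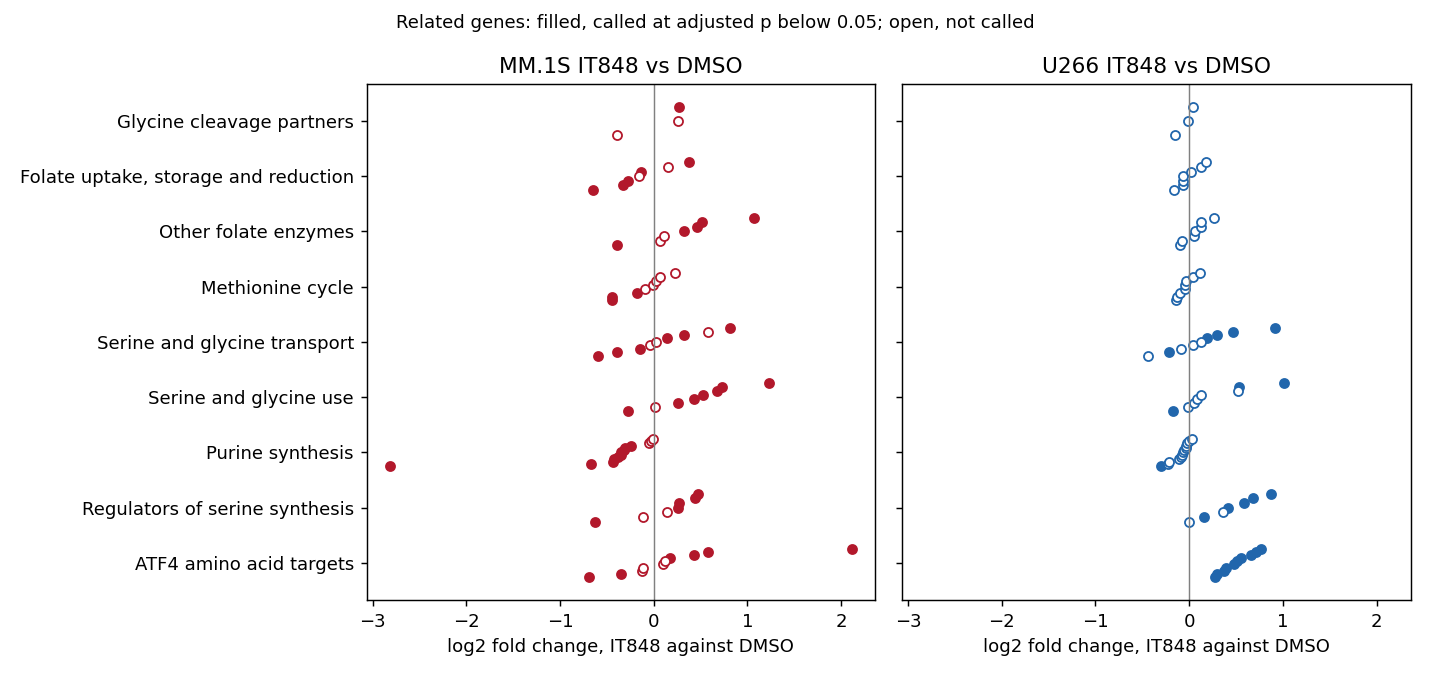
Log2 fold change of IT848 over DMSO (horizontal axis) for the genes of 9 related lists, in MM.1S and U266, with filled points called and open points not called at an adjusted p below 0.05. Purine synthesis genes lie mostly below 0 in MM.1S and near 0 in U266, and the lowest point, ADSSL1 in MM.1S, named after its values were seen, averaged 0.0114 CPM with IT848 and 0.105 CPM with DMSO.

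The genes whose pattern was most like each member's were found as the highest Pearson correlation of log2(CPM + 1) over the 12 libraries after centring each line on its own mean. The points share libraries and depth, and the values carry no test. Centring by line leaves the difference between IT848 and DMSO in the values. Genes with similar responses to IT848 therefore reach a high r, which largely restates those responses. PSAT1 was most like HSP90AA1 (r = 0.997) and HSP90AB1 (0.993), PHGDH most like SPR (0.991) and AIFM2 (0.990), and PSPH most like SARS (0.985) and ATP6V1H (0.985). SHMT2 was closest to EIF1 (0.989) and PRDX1 (0.989), and SHMT1 to TBC1D1 (0.987) and ORAI2 (0.980). MTHFD2 was closest to DNAJA1 (0.983) and DUSP1 (0.969), MTHFD1L to KLHDC7B (0.962) and PARP16 (0.958), and ALDH1L2 to PLAA (0.993) and ATP2C1 (0.991). MTHFD1 was closest to FANCI (0.993) and KPNB1 (0.992), and GLDC to AKAP2 (0.994) and INPP5D (0.994). Among the 10 genes, PSAT1 and SHMT2 had r = 0.977, PHGDH and MTHFD1 had r = -0.973, and SHMT1 and ALDH1L2 had r = -0.979. MTHFD1L correlated less with the others, at 0.750 with MTHFD2 and 0.282 with PHGDH.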

How the data were processed

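RNA was sequenced from 12 libraries, 3 in each of 4 groups. Per the submitters' processing notes, the tools were STAR 2.5.2b, Subread 1.5.2 with featureCounts, Trimmomatic 0.36 and bcl2fastq, and the build was hg19. Strand and multi-mapping settings: not given in the sources used here. The tables that the authors deposited list a count, an FPKM and a TPM for each of 51780 transcripts, per the file headers. Deposited counts are reads per transcript. The deposited FPKM, scaled by the authors to length and depth, gave the transcript lengths used here. The deposited TPM, normalized by the authors for length and library, gave levels between genes.

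Counts were summed per gene symbol, which repeats reads shared by transcripts of a gene (least over most counted transcript, median 0.982 over 6176 symbols with over 1000 counts). edgeR 4.0.16 in R 4.3.3 (TMM scaling, filterByExpr with a minimum count of 10, robust quasi-likelihood F test, means of 4 groups) tested 16782 genes, with Benjamini-Hochberg adjustment over all of them and calls at an adjusted p below 0.05. The fit was run on simulated data with a single spread for all genes and with no difference between lines and no length trend. That run therefore does not show how the fit performs on these libraries. The standard error is the absolute log2 fold change divided by the root of F. Totals of 50627690 to 72039748 counts per library set the precision. Replicate libraries differed by more than counting noise, so none was taken as a duplicate. Chi-square per gene was 6.08 to 25.7 within MM.1S IT848, highest between replicates 1 and 3, and 2.00 to 7.47 within the other groups.

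All 10 genes were named. For each related list at most 4 genes were named, those called in most of the 2 responses and their difference, with ties decided by size, and 2 genes per member were named by likeness, leaving out symbols with a hyphen. ATF4, NFE2L2, GATM and ADSSL1 fall outside this rule and were named after their values were seen. The values of 1 gene that the rule names are not reported here. Genes around the pathway and the members were chosen with earlier results of these data known. PSPHP1 was not used here. Alternatives were DESeq2 1.42.0, other size factors, no filter on low counts, 1 transcript per gene, a length correction, a replicate block, leaving out each library, and leaving out the 2 libraries with reads of the other line. Protein sequences were not used here.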

Additional observations from a re-analysis of the deposited data

Results flagged for a closer look

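The responses to IT848 differed between the lines for 7 of the 10 genes by an interaction term in edgeR's quasi-likelihood fit, with each value the MM.1S response minus the U266 response in log2 units. Over all genes 17.4% were called in this contrast, and leaving out 1 library gave 5 to 7 of the 10 genes. They were more positive in MM.1S for PHGDH (0.41, adjusted p = 0.00101), PSAT1 (0.40, adjusted p = 0.00186) and ALDH1L2 (0.56, adjusted p = 0.000337). They were more negative in MM.1S for SHMT1 (-0.23, adjusted p = 0.0201), MTHFD2 (-0.31, adjusted p = 0.0262), MTHFD1L (-0.38, adjusted p = 0.00101) and MTHFD1 (-0.51, adjusted p = 7.01e-05). The MTHFD2 difference was lost in 10 of 19 settings and the SHMT1 difference in 6.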

How the results depend on the processing

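Over 19 alternative settings the 10 genes gave 760 values in the 4 comparisons, of which 715 kept their direction and side of the threshold, 40 lost a call, 4 gained one and 1 changed sign. The sign change was MTHFD1L in MM.1S (0.0086 once the 2 libraries with some reads from the other line were removed), which was not called. Without those 2 libraries 924 genes were called in U266 against 1512, and 1712 in the response difference against 2924. Whether replicate numbers pair the libraries was not settled, as deviations were taken from the mean of only 3 libraries a group. Same-numbered libraries had correlations of 0.106, -0.0506 and 0.0820 in MM.1S, where different-numbered ones had -0.124 to 0.0329. In U266 same-numbered libraries had 0.0444, 0.00246 and -0.00145, where different-numbered ones had -0.0272 to 0.0284. With the replicate block 4388 genes were called in the response difference, 7331 in MM.1S and 2155 in U266, and 9, 10 and 7 of the 10 genes were called in MM.1S, U266 and the difference. Leaving out each library gave 5110 to 6681 genes in MM.1S, 986 (without U266 DMSO replicate 3) to 1827 in U266, 2208 to 3870 in the difference and 13480 to 14177 between the DMSO groups, with 8 to 9, 8 to 10, 5 to 7 and 10 to 10 of the 10 genes. The causes were not tested. All 190 values between the DMSO groups kept their call. The lowest count of the 10 genes in any library was 411, for PSPH.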
